A study of Mus musculus with 12 samples.

Results

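The 8 genes Ep300, Crebbp, Kat2a, Kat2b, Kat5, Sirt1, Smarca4 and Topbp1 encode acetyltransferases, a deacetylase, a nucleosome remodeller and a scaffold. They are listed here as partners of E2F1 in acetylation and at DNA breaks, which does not show that each acts with E2F1 at breaks. They were chosen by name as a list of 8 mouse gene symbols, matched to 8 of the 37991 Ensembl gene identifiers in the count files, and all 8 were among the 15327 genes that passed the filter on low counts. RNA was sequenced from primary mouse embryonic fibroblasts (MEFs) of the FVB strain, isolated from embryos of 13.5 days and seeded at passage 3. Wild-type MEFs and MEFs homozygous for the E2f1 3KR knock-in allele were each measured untreated and after 3 h in 250 ng/ml neocarzinostatin (NCS), a radiomimetic drug that breaks both DNA strands. Each of the 4 groups held 3 samples. The 3KR allele replaces the 3 acetylated lysines of E2F1 with arginine in every cell, from the endogenous locus. How many embryos or litters gave the samples is not given in the sources used here, so the p-values measure the spread between these samples.

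E2F1 is a transcription factor of the cell cycle that is phosphorylated and acetylated after DNA damage and then also gathers at broken DNA ends. p300, CBP, PCAF and GCN5 place acetyl groups on histones and on other proteins, Tip60 acetylates histone H4 and the ATM kinase at breaks, and SIRT1 takes acetyl groups off. TopBP1 binds phosphorylated E2F1 through its BRCT domains, and BRG1 is the ATPase of SWI/SNF complexes, which slide and evict nucleosomes. All of this takes place on proteins. The libraries measure only the mRNA of these genes.

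The libraries held 33203757 to 45279321 gene counts. In both treatments wild-type replicate 3 stood apart from the other wild-type libraries, the chi-square of its counts per gene being 7.34 to 9.14 where all other pairs of replicates gave 2.02 to 2.29, so the number of the 8 genes called is given with and without it in every comparison. Xist was at 30590 to 35635 normalized counts in the 3KR libraries and at 32.3 to 62.5 in the wild-type libraries, while Ddx3y, on the Y chromosome, was at 7.0 to 16.2 and at 5370.3 to 5822 respectively. Genotype and embryo sex cannot be told apart in these libraries. All 8 fibroblast markers were present in every library. They were not alike between untreated genotypes, where 6 were higher and 2 lower in 3KR MEFs. Of the other cell types, macrophages had 7 of 8 markers higher in untreated 3KR MEFs and a summed level of 188 CPM (counts scaled to one fixed total per library) in each library against 89.7 to 105 CPM in wild-type MEFs. Schwann cell markers went the other way, with 5 of 7 lower and 43.2 to 44.3 CPM against 206 to 211 CPM. Of 3 tested epithelial markers 2 were higher and 1 lower, at a low summed level of 3.02 to 3.26 CPM against 2.43 to 2.56 CPM. The part of these cells in the results below was not tested. E2f1 itself did not pass the test between genotypes, with a log2 fold change of -0.03 ± 0.063 (SE) untreated (edgeR FDR = 0.71) and -0.02 ± 0.063 after NCS (edgeR FDR = 0.86). Its counts cannot show the replaced codons and so do not check the labels.

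Per length, Smarca4 was the most abundant of the 8 mRNAs and Crebbp and Kat2b the least. Smarca4 averaged 118 TPM (counts per length of annotated exons, scaled to the same total in every sample) over the 12 samples, with a range of 109 to 127. Kat2a followed at 65.9 TPM (49.3 to 82.4) and Topbp1 at 38.8 TPM (33.5 to 43.6). Kat5 at 26.2 TPM and Ep300 at 25.8 TPM had overlapping ranges. So had Kat2b at 12.97 TPM and Crebbp at 12.8 TPM, and the range of Sirt1, 14.4 to 18.6 TPM, touched that of Crebbp, 10.7 to 14.5. Among the tested genes, 89.7% had a lower level per length than Smarca4, and 44.6% had a lower level than Crebbp. The order of Kat2a and Topbp1 depended on the length used. With the longest annotated transcript in place of all exons, Topbp1 stood at 63.8 TPM and Kat2a at 53.6 TPM.

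**Figure D1:**
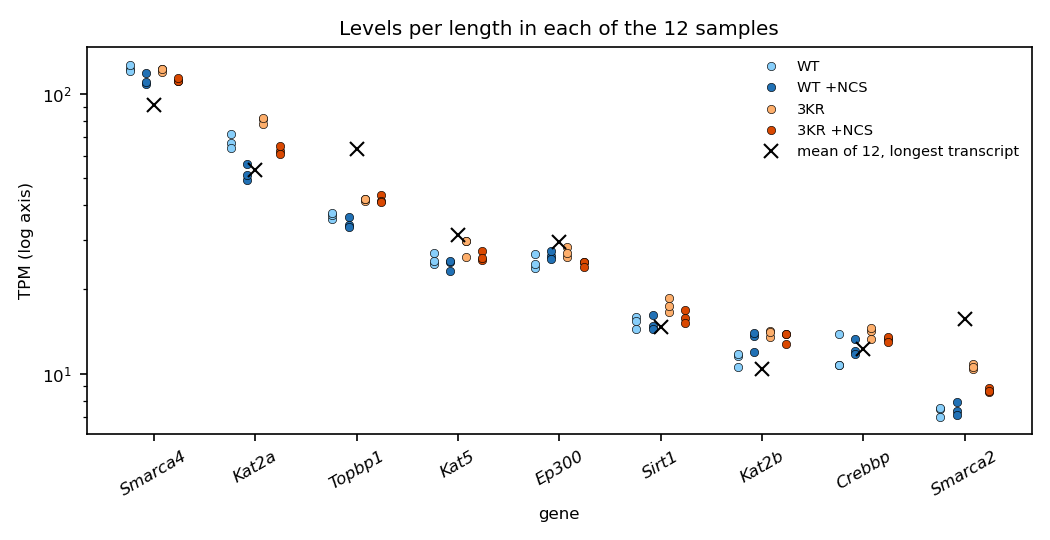
Levels per length, in TPM on a log axis, of the 8 genes and of Smarca2 in each of the 12 samples, coloured by group, with the mean over 12 samples by longest transcript as crosses. Smarca4 lies above all other genes in every sample, and the cross of Topbp1 lies above that of Kat2a.

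Promoter sequence was read from RefSeq (build GRCm38.p6), which lists windows of 250 bases before to 50 bases after a start for all 8 genes. Each window was searched on both strands for the E2F words TTTCCCGC, TTTCGCGC, TTTGCCGC and TTTGGCGC. Of the 8 genes, 2 held one, Kat2a and Topbp1, against 2.60% of all 27025 genes and 2.26% of all 32851 windows in the table. The 250 bases before the starts of Kat2a (chr11:100712468-100712717, minus strand), Topbp1 (chr9:103305077-103305326, plus strand) and, as the paralog of Kat2a, the first of the 2 listed starts of Kat2b (chr17:53566721-53566970, plus strand) are shown for comparison, with the E2F word in capitals as it reads on the gene's own strand.
Kat2a: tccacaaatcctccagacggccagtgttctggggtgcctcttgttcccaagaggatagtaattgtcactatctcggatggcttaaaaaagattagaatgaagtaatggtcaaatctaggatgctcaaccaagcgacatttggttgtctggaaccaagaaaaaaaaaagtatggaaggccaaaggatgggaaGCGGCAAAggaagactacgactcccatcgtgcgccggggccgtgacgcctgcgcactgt
Topbp1: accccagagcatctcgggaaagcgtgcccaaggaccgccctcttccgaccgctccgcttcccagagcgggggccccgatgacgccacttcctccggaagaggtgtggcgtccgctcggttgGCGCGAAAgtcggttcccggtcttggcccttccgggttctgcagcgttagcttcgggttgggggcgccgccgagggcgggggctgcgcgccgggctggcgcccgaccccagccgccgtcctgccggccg
Kat2b: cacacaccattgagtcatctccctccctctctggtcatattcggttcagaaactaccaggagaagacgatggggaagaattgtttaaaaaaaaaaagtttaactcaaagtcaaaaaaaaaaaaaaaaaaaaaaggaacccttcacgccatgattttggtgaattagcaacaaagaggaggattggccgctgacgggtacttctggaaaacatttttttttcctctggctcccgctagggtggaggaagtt
The word of Topbp1, the reverse complement of TTTCGCGC, begins at position -129 from the start, and that of Kat2a, the reverse complement of TTTGCCGC, at position -59. The E-box CACGTG, the word read by MYC and by the clock factors, was present in 2 genes, at 1 position in a Kat5 window and at 2 in Sirt1, against 8.09% of genes and 7.15% of windows. The GC box GGGCGG was present in 6 of 8 genes, all but Kat2a and Kat2b, against 38.2% of genes and 35.7% of windows. CCAAT was present in 2, Kat2b and Kat5, against 41.1% of genes and 37.4% of windows. No window of the 8 genes held the cyclic AMP word TGACGTCA, which 2.03% of genes and 1.79% of windows held. The windows differed in base composition, with 47.0% G and C in that of Kat2b, 54.3% in that of Kat2a, 73.7% in that of Topbp1 and 82.0% in that of Crebbp. The shares are over all genes with a window, whether or not they passed the filter on low counts, as all 8 genes did. They are therefore no measure of enrichment among expressed genes. A match of letters is a description of the window and does not show binding.

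Untreated 3KR MEFs had more mRNA of 5 of the 8 genes than untreated wild-type MEFs, namely Crebbp, Kat2a, Kat2b, Sirt1 and Topbp1, by 12.3% to 21.7%. Ep300, Kat5 and Smarca4 did not pass the test. Of all 15327 genes, 22.1% were higher and 45.7% were called in either direction. The median log2 fold change of the 8 genes was 0.17 against a median of -0.00036 over all tested genes, and their median absolute change of 0.17 was close to the 0.18 of all tested genes. In 4 genes, Kat2a, Kat2b, Sirt1 and Topbp1, the lowest 3KR sample lay above the highest wild-type sample, and 53.5% of all genes had groups that did not overlap. In bulk RNA, a change in the share of cells that express a gene and a change in RNA per cell cannot be told apart. Without wild-type replicate 3 of both treatments, 7 of the 8 genes were called, all but Smarca4, with 48.8% of all genes called.

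After NCS, 3 of the 8 genes differed between genotypes, with 46.5% of all genes called. Kat2a and Topbp1 were higher in 3KR MEFs and Ep300 was lower. Without wild-type replicate 3, Crebbp was called as well, higher in 3KR MEFs, with 49.7% of all genes called. The groups did not overlap in 4 genes, these 3 and Kat5, against 54.3% of all genes.

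NCS changed 3 genes in wild-type MEFs, where 26.7% of all genes were called. Kat2a fell, and Kat2b and Ep300 rose. In 3KR MEFs NCS changed 1 gene, Kat2a, which again fell, with 30.8% of all genes called. In wild-type MEFs same-numbered treated and untreated samples deviated together, but the labels do not say that the numbers mark pairs. There a fit with the replicate number within each genotype as a block called 5 of the 8 genes. It added Crebbp and Smarca4, with 34.2% of all genes called. Without wild-type replicate 3 the counts were 5 genes in wild-type MEFs (32.7% of all genes) and 4 in 3KR MEFs (39.7%). The groups did not overlap in 3 genes in each genotype, against 35.1% of all genes in wild-type and 47.6% in 3KR MEFs. Both genotypes responded to the drug as a whole, since 13 of 14 p53 target genes rose in each. The genotypes were not alike in these genes. In 3KR MEFs 12 were lower untreated, and 11 were lower and 1 higher after NCS (85.7% called in both, against 45.7% and 46.5% of all genes). In the test of a difference between responses 6 of them passed, all higher in 3KR MEFs, against 3.73% of all genes. The NCS and genotype comparisons share samples, and their values are set side by side below.

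The test of the difference between genotypes in the NCS response called none of the 8 genes by edgeR, against 3.73% of all genes, and 3 had an unadjusted p under 0.05 (Ep300, Kat2b and Topbp1). The DESeq2 Wald test called 1, Ep300, against 5.66% of all genes. The fit with the replicate number within each genotype as a block also called Ep300 alone, with 9.00% of all genes called. That fit blocks the 3KR samples too, where same-numbered samples did not deviate together. Without wild-type replicate 3, Ep300, Crebbp and Topbp1 were called, with 11.8% of all genes called.

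**Figure D2:**
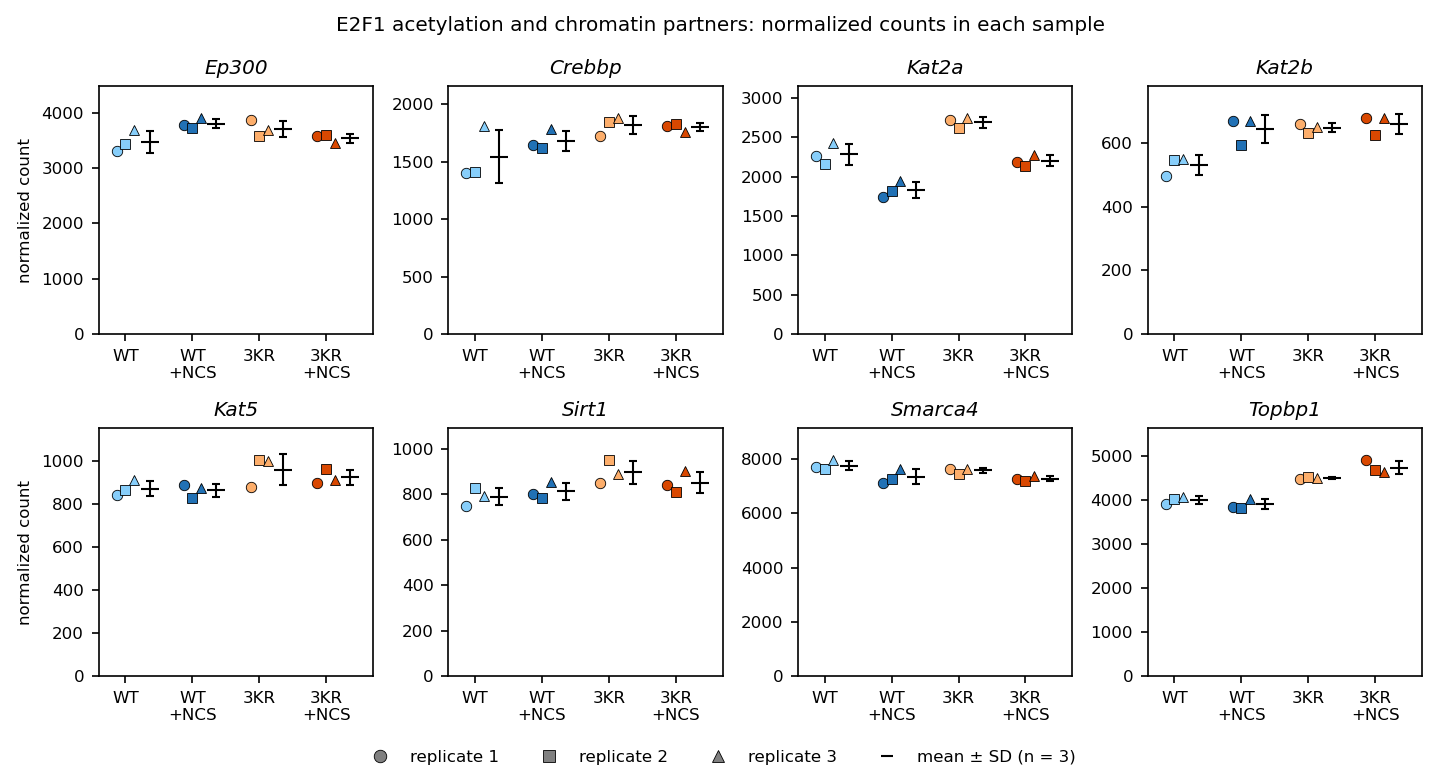
Normalized counts of the 8 genes (counts divided by DESeq2 size factors, axes from 0) in each of the 12 samples, with marker shapes for the replicates and the mean ± SD of each group of 3. Kat2a falls after NCS in both genotypes, Topbp1 is higher in all 6 3KR samples than in all 6 wild-type samples, and untreated wild-type replicate 3 of Crebbp, at 1812, lies apart from replicates 1 and 2.

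**Figure D3:**
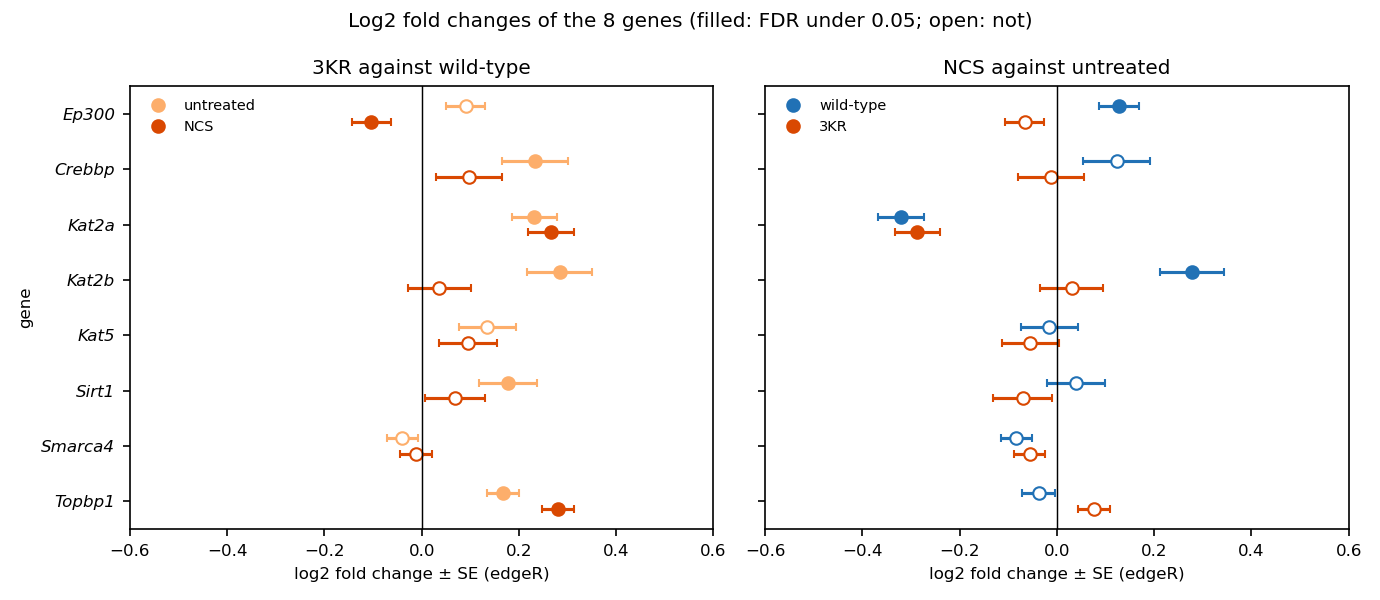
Log2 fold changes with their SE for the 8 genes, 3KR against wild-type MEFs on the left and NCS against untreated MEFs on the right, filled where the edgeR FDR was under 0.05. Kat2a and Topbp1 are filled in both genotype comparisons, and Ep300 lies on opposite sides of 0 in untreated and treated MEFs on the left and in wild-type and 3KR MEFs on the right.

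Ep300 encodes p300, an acetyltransferase and coactivator that modifies histone H3 and E2F1. Its normalized counts were 3299, 3425 and 3692 in untreated wild-type MEFs and 3784, 3723 and 3896 after NCS. In 3KR MEFs they were 3868, 3579 and 3679.8 untreated, and 3581, 3587 and 3447 after NCS. All 3 NCS samples lay above all 3 untreated samples in wild-type MEFs, whereas the groups overlapped in 3KR MEFs. NCS raised Ep300 by 0.13 ± 0.040 (log2, SE; edgeR FDR = 0.021) in wild-type MEFs, and in 3KR MEFs the value was -0.07 ± 0.041 (edgeR FDR = 0.24). The difference between these responses was -0.19 ± 0.057 with an edgeR FDR of 0.063. Under the 18 alternatives it stayed between -0.24 and -0.16, with an FDR of 0.00013 to 0.195, and passed in 5 of them. These were the DESeq2 Wald test (FDR = 0.035), no filter on low counts (0.019), the replicate block (0.0025), and leaving out wild-type replicate 3 of both treatments (0.00013) or of the untreated group alone (0.0025). Between genotypes Ep300 gave 0.09 ± 0.041 untreated (edgeR FDR = 0.074) and -0.10 ± 0.041 after NCS (edgeR FDR = 0.041). Both calls changed when single libraries were left out and with no filter on low counts. The untreated difference passed with no filter (0.10, FDR = 0.039), and without untreated 3KR replicate 2 (0.12, FDR = 0.046) or untreated wild-type replicate 3 (0.14, FDR = 0.0033). The one after NCS was lost without any one of the 3 treated 3KR replicates or treated wild-type replicate 1 or 3. Its FDR was then between 0.065 and 0.163. It was also lost by the DESeq2 Wald test (0.056) and with no filter on low counts (0.054). Without wild-type replicate 3 of both treatments, both differences passed (0.14, FDR = 8.1e-05 untreated, and -0.08, FDR = 0.028 after NCS). The NCS rise in wild-type MEFs was lost without treated replicate 1 (FDR = 0.051) or 3 (0.066), or untreated replicate 1 (0.145) or 2 (0.074), and with only the 6 wild-type samples fitted (0.090). The 3KR response passed with only the 6 3KR samples fitted (-0.07, FDR = 0.049) and without wild-type replicate 3 of both treatments (-0.07, FDR = 0.045).

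Crebbp encodes CBP, the paralog of p300 with which it shares most substrates. It was counted at 1405, 1412 and 1812 in untreated wild-type MEFs and at 1647, 1619 and 1781 after NCS. The 3KR values were 1727, 1844 and 1877 untreated, and 1809, 1829.5 and 1759.7 with NCS. Untreated wild-type replicate 3 was as high as the 3KR samples, and the other 2 untreated wild-type samples were the lowest of all 12. Crebbp was higher in untreated 3KR MEFs by 0.23 ± 0.068 (edgeR FDR = 0.0073). Leaving out untreated wild-type replicate 1 or 2 ended this call (0.17 in both, FDR = 0.064 and 0.056), and leaving out wild-type replicate 3 of both treatments raised the value to 0.37 (FDR = 3.2e-11). After NCS the genotypes differed by 0.10 ± 0.068 (edgeR FDR = 0.26), or by 0.14 without replicate 3 (FDR = 0.0041). NCS gave 0.12 ± 0.069 in wild-type MEFs (edgeR FDR = 0.20) and -0.01 ± 0.068 in 3KR MEFs (edgeR FDR = 0.92). The wild-type value passed with the replicate block (0.13, FDR = 0.028) and without untreated replicate 3 (0.25, FDR = 0.00019). For the difference between responses, -0.14 ± 0.097 (edgeR FDR = 0.53), leaving out untreated wild-type replicate 3 gave -0.27 with an FDR of 0.011.

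Because both genes are counted in the same library, the ratio of Crebbp to Ep300 counts does not depend on the scaling of libraries. In wild-type MEFs the ratio was 0.443 ± 0.042 (SD, n = 3) untreated and 0.442 ± 0.013 after NCS, and 0.491 ± 0.038 and 0.509 ± 0.0029 in 3KR MEFs. On the log2 scale the 3KR MEFs were higher by 0.17 (two-sided exact permutation test over 400 arrangements, genotype permuted within treatment, p = 0.01, adjusted p = 0.02 over the 6 ratio tests). This test takes all 12 samples as independent, although same-numbered treated and untreated wild-type samples deviated together. With each same-numbered pair averaged and the genotype permuted over the 3 pairs of each genotype, the exact permutation p was 0.1. That is the smallest that 20 arrangements can give, so this test cannot reach 0.05 and does not decide whether the ratio differs. Within untreated samples the difference was 0.15 (exact permutation p = 0.2) and within NCS samples 0.20 (exact permutation p = 0.1, the smallest that 3 against 3 can give). The adjusted p was 0.05 or more, up to 0.08, in 10 of the 12 recalculations that each left out 1 sample. NCS moved the ratio by 0.03 (exact permutation p = 0.555, adjusted p = 0.666).

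**Figure D4:**
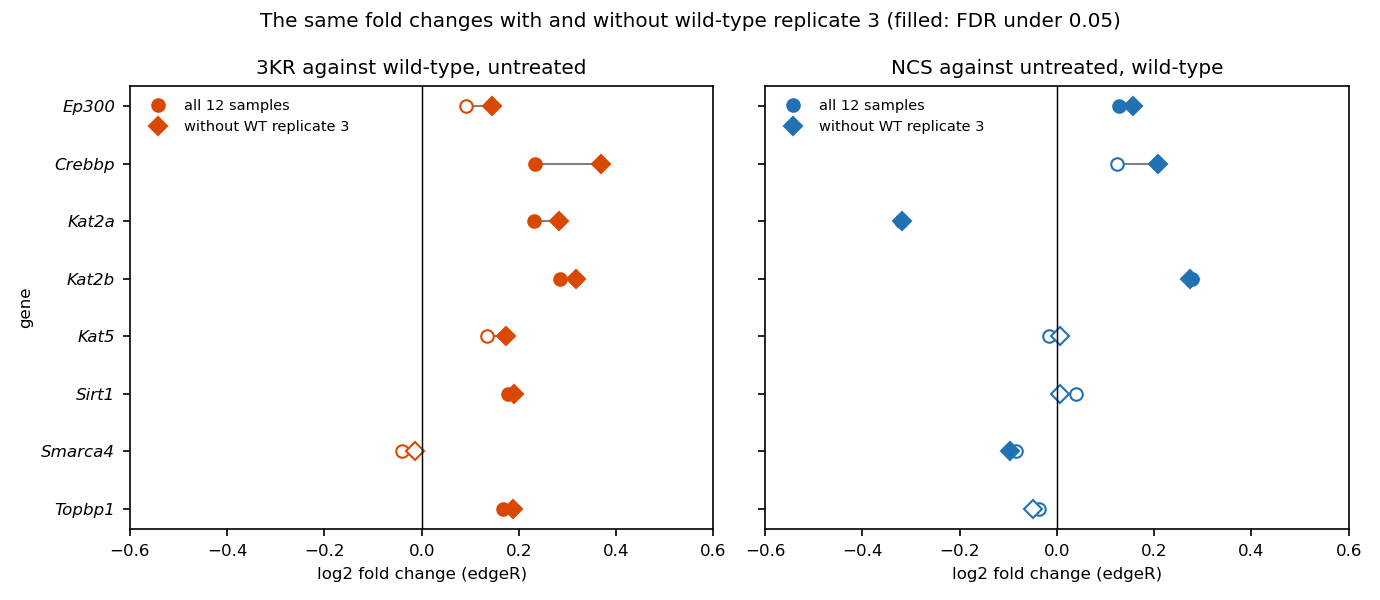
Log2 fold changes of the 8 genes with all 12 samples (circles) and without wild-type replicate 3 of both treatments (diamonds), filled where the FDR was under 0.05, for 3KR against wild-type MEFs untreated (left) and NCS against untreated in wild-type MEFs (right). Crebbp moves furthest, from 0.23 to 0.37 on the left, and Kat2a on the right stays at -0.32.

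Kat2a encodes GCN5, the acetyltransferase of the SAGA and ATAC coactivator complexes. It was at 2258, 2165 and 2422 normalized counts in untreated wild-type MEFs and fell to 1735, 1822 and 1937 with NCS. In 3KR MEFs it was at 2717, 2611 and 2739 untreated and at 2184, 2139.8 and 2278 with NCS. Every treated sample lay below every untreated sample of its genotype, and every 3KR sample above every wild-type sample of its treatment. With NCS, Kat2a fell by 19.9% in wild-type MEFs (log2 -0.32 ± 0.047, edgeR FDR = 1.4e-05) and by 18.0% in 3KR MEFs (log2 -0.29 ± 0.046, edgeR FDR = 3.6e-05). The responses differed by 0.03 ± 0.065 (edgeR FDR = 0.86). Kat2a was higher in 3KR MEFs by 0.23 ± 0.045 untreated (edgeR FDR = 0.00018) and by 0.27 ± 0.047 after NCS (edgeR FDR = 6.1e-05). In each of these 4 comparisons Kat2a passed under all 13 alternatives, with the largest FDR at 0.0024.

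Kat2b encodes PCAF, the paralog of GCN5 that acetylates E2F1, histone H3 and p53. Counts were 497, 547 and 552 in untreated wild-type MEFs, and 671, 594 and 672 after NCS. In 3KR MEFs they were 660.1, 632 and 653 untreated and 678.5, 625 and 678 after NCS. The 3 untreated wild-type samples were the lowest of all 12, and the other 3 groups overlapped one another. NCS raised Kat2b in wild-type MEFs by 0.28 ± 0.066 (edgeR FDR = 0.0028), and gave 0.03 ± 0.065 in 3KR MEFs (edgeR FDR = 0.77). The difference between these responses, -0.25 ± 0.093, did not pass (edgeR FDR = 0.16), nor did it under any of the 18 alternatives, where the FDR ran from 0.088 to 0.356. Untreated 3KR MEFs had more Kat2b than wild-type MEFs by 0.28 ± 0.066 (edgeR FDR = 0.0011), and after NCS the genotypes differed by 0.04 ± 0.065 (edgeR FDR = 0.68). The untreated genotype difference and the wild-type response passed under all 13 alternatives.

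The balance of the paralogs moved with treatment. Kat2b counts per Kat2a count rose from 0.234 ± 0.017 (SD, n = 3) to 0.353 ± 0.031 in wild-type MEFs. In 3KR MEFs they rose from 0.241 ± 0.0024 to 0.3002 ± 0.0094. The log2 ratio was higher after NCS by 0.46 (exact permutation p = 0.005, the smallest the 400 arrangements can give, adjusted p = 0.015), and by 0.60 and 0.32 within the wild-type and 3KR genotypes (exact permutation p = 0.1 in both). All 3 treated samples exceeded all 3 untreated samples in each genotype. As differences between same-numbered samples the exact permutation p was 0.03125, the smallest that 6 pairs can give, with an adjusted p of 0.0625. Leaving out single samples kept the value between 0.42 and 0.48. Between genotypes the log2 ratio differed by 0.05 untreated (exact permutation p = 0.4) and by -0.23 after NCS, where the groups did not overlap (exact permutation p = 0.1). Averaged over both treatments the genotype difference was -0.09 (exact permutation p = 0.2, adjusted p = 0.3).

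**Figure D5:**
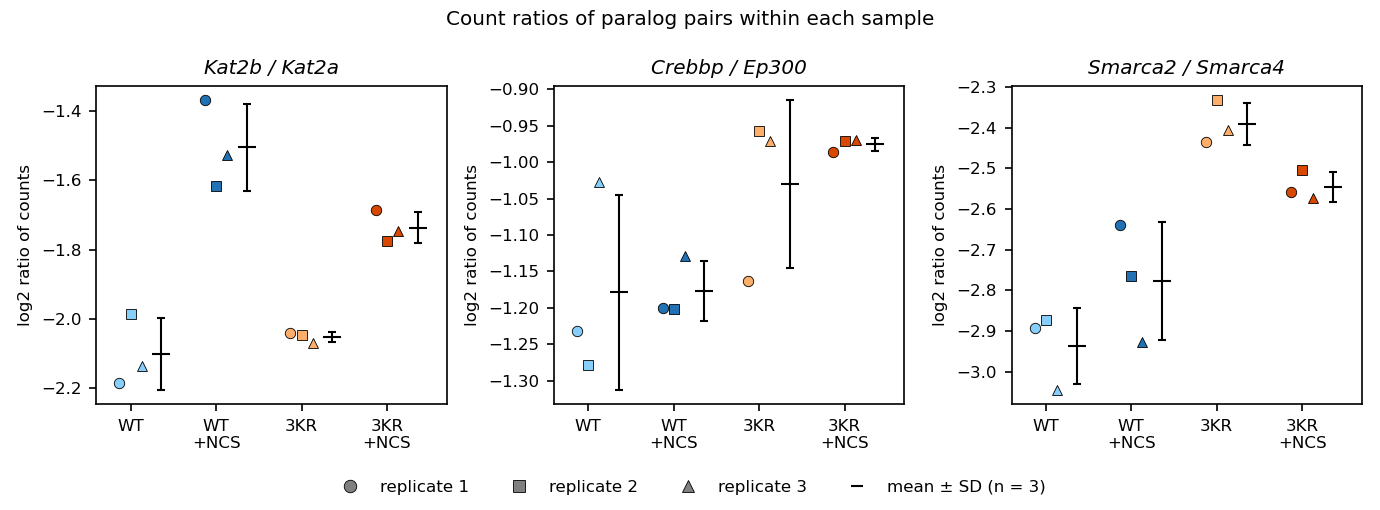
Log2 ratio of counts within each sample for Kat2b over Kat2a, Crebbp over Ep300 and Smarca2 over Smarca4, with replicate shapes and the mean ± SD of each group of 3 (the axes do not start at 0). Kat2b over Kat2a rises after NCS in both genotypes, and Smarca2 over Smarca4 is higher in all 3KR samples than in all wild-type samples.

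Kat5 encodes Tip60, which acetylates histone H4 at breaks as part of the NuA4 complex. Its counts ran from 842.5 to 911 in untreated wild-type MEFs and from 831 to 888 after NCS, and from 879 to 1004 and 899 to 963 in 3KR MEFs. The 3 treated 3KR samples lay above the 3 treated wild-type samples, and the groups of the other comparisons overlapped. Kat5 passed neither the edgeR nor the DESeq2 test in any comparison, with 0.14 ± 0.058 between untreated genotypes (edgeR FDR = 0.062), 0.10 ± 0.059 between treated ones (edgeR FDR = 0.20), and NCS values of -0.02 ± 0.059 and -0.05 ± 0.058 in wild-type and 3KR MEFs. The untreated genotype difference passed without untreated 3KR replicate 1 (0.19, FDR = 0.012) or without untreated wild-type replicate 3 (0.17, FDR = 0.030). Kat5 shares 426 exonic bases with Rnaseh2c on the opposite strand, and the strand setting of the counting is not given in the sources used here, so some of its counts could belong to that gene. Rnaseh2c was at 427 to 607 normalized counts and passed in none of the 5 comparisons.

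Sirt1 encodes the NAD-dependent deacetylase that acts on E2F1, p53 and histones. It was at 749, 826 and 793 normalized counts in untreated wild-type MEFs and at 849.5, 948.5 and 888 in untreated 3KR MEFs, which did not overlap. After NCS the values were 799.5, 783 and 855 in wild-type and 841.5, 809 and 903 in 3KR MEFs, which did. Sirt1 was higher in untreated 3KR MEFs by 0.18 ± 0.060 (edgeR FDR = 0.018), and this call was lost without 3KR replicate 2 (0.14, FDR = 0.108) or wild-type replicate 1 (0.14, FDR = 0.0999). The treated genotypes differed by 0.07 ± 0.061 (edgeR FDR = 0.38). NCS gave 0.04 ± 0.061 in wild-type MEFs and -0.07 ± 0.060 in 3KR MEFs, and neither passed under any of the 13 alternatives. An antisense gene, Gm16145, shares 65 exonic bases with Sirt1.

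Smarca4 encodes BRG1, the SWI/SNF ATPase that opens chromatin at breaks. It had the highest counts of the 8 genes and the genotype differences closest to 0. Counts ran from 7629 to 7955.5 in untreated and from 7109 to 7645 in treated wild-type MEFs, and from 7468 to 7644 and 7207 to 7388 in 3KR MEFs. The genotype differences were -0.04 ± 0.032 untreated (edgeR FDR = 0.34) and -0.01 ± 0.032 after NCS (edgeR FDR = 0.80), and neither passed under any of the 13 alternatives. NCS gave -0.08 ± 0.032 in wild-type MEFs (edgeR FDR = 0.058) and -0.06 ± 0.032 in 3KR MEFs (edgeR FDR = 0.20), where the 3 treated samples lay below the 3 untreated ones. The wild-type value passed with the replicate block (-0.08, FDR = 0.0069), with a filter of at least 10 counts in every sample (-0.10, FDR = 0.020), without treated replicate 3 (-0.11, FDR = 0.0098) and without replicate 3 of both treatments (-0.10, FDR = 0.0018). The 3KR value passed when only the 6 3KR samples were fitted (-0.06, FDR = 0.024) and without wild-type replicate 3 (-0.06, FDR = 0.019).

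Smarca2, which encodes BRM, the alternative ATPase of the same complexes, did differ between genotypes. It was at 1036, 1042 and 965 normalized counts in untreated wild-type MEFs and at 1414, 1482 and 1440.3 in untreated 3KR MEFs, a difference of 0.50 ± 0.051 (edgeR FDR = 1.9e-08). After NCS it was at 1142, 1070.4 and 1006 in wild-type and at 1232, 1271 and 1241 in 3KR MEFs, a difference of 0.22 ± 0.052 (edgeR FDR = 0.0014). NCS lowered it in 3KR MEFs (-0.21 ± 0.051, edgeR FDR = 0.0027) and gave 0.08 ± 0.053 in wild-type MEFs (edgeR FDR = 0.32). The log2 ratio of Smarca2 to Smarca4 counts was higher in 3KR MEFs by 0.39 (exact permutation p = 0.005, adjusted p = 0.015), by 0.55 within untreated and 0.23 within treated samples (exact permutation p = 0.1 in both), and by 0.35 to 0.42 with single samples left out. With the genotype permuted over same-numbered pairs the exact permutation p was 0.1, the smallest possible. NCS moved this ratio in opposite directions, by -0.15 in 3KR MEFs (exact permutation p = 0.1) and by 0.16 in wild-type MEFs (exact permutation p = 0.3), with a mean of 0.003 (exact permutation p = 0.965).

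Topbp1 encodes the BRCT scaffold that binds phosphorylated E2F1 and activates the ATR kinase. Its counts were 3903, 4022 and 4071 in untreated wild-type MEFs and 4474, 4538.5 and 4509 in untreated 3KR MEFs. With the drug the values were 3855, 3828 and 4039 in wild-type and 4907, 4684.5 and 4641 in 3KR MEFs. The lowest of the 6 3KR samples lay above the highest of the 6 wild-type samples. Topbp1 was higher in 3KR MEFs by 12.3% untreated (log2 0.17 ± 0.034, edgeR FDR = 0.00024) and by 21.5% after NCS (log2 0.28 ± 0.034, edgeR FDR = 2.7e-07), and passed under all 13 alternatives in both. NCS gave -0.04 ± 0.034 in wild-type MEFs (edgeR FDR = 0.47). In 3KR MEFs all 3 treated samples exceeded the untreated ones, by 0.08 ± 0.033 (edgeR FDR = 0.090). This value passed with only the 6 3KR samples fitted (FDR = 0.016), with the replicate block (FDR = 0.025) and without wild-type replicate 3 of both treatments (FDR = 0.015). The responses differed by 0.11 ± 0.047 (edgeR FDR = 0.23), or by 0.12 without wild-type replicate 3 (FDR = 0.036). Proliferation genes moved with the genotype too. The summed level of 18 such genes was 1210 to 1217 CPM in untreated wild-type and 1497 to 1511 CPM in untreated 3KR MEFs, and 998 to 1022 and 1370.1 to 1384 CPM after NCS. Their part in the Topbp1 difference was not tested.

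The lists of related genes are read against all tested genes. Between genotypes 22.1% were higher and 23.6% lower untreated, and 22.9% and 23.6% after NCS. With NCS 14.3% rose and 12.4% fell in wild-type MEFs, and 15.8% rose and 15.0% fell in 3KR MEFs.

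The partners of TopBP1 in break signalling were mostly higher in 3KR MEFs. Of 25 tested genes, 15 were higher and 2 lower untreated, or 68% called against 45.7% of all genes. After NCS 17 were higher and 1 lower, or 72% against 46.5%, with a median log2 difference of 0.22 in both treatments. Mdc1, the mediator that binds phosphorylated H2AX, differed by 0.38 ± 0.040 untreated, and Clspn, the claspin adaptor of ATR signalling, by 0.43 ± 0.049 untreated and 0.52 ± 0.050 after NCS. Ticrr, the replication origin factor treslin that binds TopBP1, was higher by 0.76 ± 0.083 after NCS. Rb1, which joins E2F1 at breaks, was lower by -0.37 ± 0.071 untreated and -0.39 ± 0.064 after NCS, and Trp53bp1, the end-joining factor 53BP1, by -0.16 ± 0.050 untreated. NCS lowered 11 of the 25 genes and raised 1, Rb1, in wild-type MEFs (48% called against 26.7%), and lowered 8 and raised 1, again Rb1, in 3KR MEFs (36% against 30.8%). Rb1 rose by 0.84 ± 0.065 and 0.82 ± 0.069 in the 2 genotypes, while H2afx, the histone variant marked at breaks, fell by 0.38 and 0.34. None of the 25 passed the test of a difference between the responses by edgeR or DESeq2, 2 had an unadjusted p under 0.05, and 1 passed without wild-type replicate 3. Without that replicate 15 were higher and 2 lower untreated, 18 and 1 after NCS, and NCS lowered 10 and raised 2 in wild-type and lowered 9 and raised 2 in 3KR MEFs.

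Of the 24 other SAGA and ATAC subunits, which work with GCN5 and PCAF, 5 were higher and 0 lower in untreated 3KR MEFs, where 20.8% were called against 45.7% of all genes. The higher ones included Zzz3 (0.12 ± 0.032) and Tada2a (0.21 ± 0.054). After NCS 7 were higher and 2 lower. NCS lowered 7 in each genotype and raised 2 in wild-type and 4 in 3KR MEFs, or 37.5% and 45.8% called against 26.7% and 30.8% of all genes. Tada2a, an adaptor that binds GCN5 directly, fell by 0.39 in both, and Taf6l fell by 0.36 in wild-type and 0.44 in 3KR MEFs. Yeats2, a reader subunit of ATAC, rose by 0.19 ± 0.036 in wild-type and 0.18 ± 0.036 in 3KR MEFs. With wild-type replicate 3 left out, 6 were higher and 0 lower untreated and 9 and 2 after NCS, and NCS lowered 9 and 11 and raised 3 and 4 in wild-type and 3KR MEFs.

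Among 16 TIP60 complex subunits, 4 were higher and 0 lower in untreated 3KR MEFs, close to the 22.1% of all genes that were higher, including the ATPase Ep400 (0.27 ± 0.049) and Ing3 (0.34 ± 0.080). After NCS 3 were higher and 2 lower, the latter being the scaffold Trrap (-0.18 ± 0.040) and Mbtd1 (-0.14 ± 0.046). NCS raised 1 subunit and lowered 2 in wild-type MEFs, and lowered 4 and raised 0 in 3KR MEFs. When wild-type replicate 3 was left out, 5 were higher and 1 lower untreated and 5 and 3 after NCS, and NCS raised 2 and lowered 2 in wild-type and lowered 5 in 3KR MEFs. Vps72 fell in both genotypes, by 0.20 and 0.29. Of 25 tested SWI/SNF subunits, 4 were higher and 4 lower in untreated 3KR MEFs, led by Smarca2 and Bcl7a (0.41 ± 0.053) above and Smarcd3 (-0.32 ± 0.065) and Ss18 (-0.15 ± 0.033) below, with 32% called against 45.7% of all genes. After NCS 6 were higher and 3 lower. The counts were 8 and 4 without wild-type replicate 3 in both treatments. NCS raised 1, Arid1a (0.22 ± 0.043), and lowered 2 in wild-type MEFs, or 3 without wild-type replicate 3. It raised 3 and lowered 3 in 3KR MEFs, or lowered 7 without that replicate. Smarcd2 fell in both, by 0.18 and 0.31.

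Of 18 other acetyltransferase genes, 7 were higher and 1 lower in untreated 3KR MEFs, and their 44.4% called was close to the 45.7% of all genes. The former included the nuclear receptor coactivators Ncoa2 (0.34 ± 0.047) and Ncoa1 (0.47 ± 0.084) and the latter was Clock (-0.11 ± 0.037). After NCS, 6 were higher and 2 lower, or 9 and 2 without wild-type replicate 3, against 9 and 1 without it untreated. Elp3, the catalytic subunit of Elongator, fell with NCS by 0.31 in wild-type and 0.33 in 3KR MEFs, Kat6b by 0.27 and 0.35, and Brpf1 rose by 0.24 ± 0.051 and 0.30 ± 0.051. NCS raised 4 and lowered 4 in wild-type MEFs, and raised 3 and lowered 4 in 3KR MEFs, or 4 and 5 and 3 and 7 without that replicate. With all samples 44.4% and 38.9% were called, against 26.7% and 30.8% of all genes. Of 17 other deacetylase genes, 5 were higher and 3 lower in untreated 3KR MEFs, or 47.1% called against 45.7% of all genes. Hdac4 (0.65 ± 0.054) and Sirt6 (0.32 ± 0.053) were higher, and Hdac9 (-0.37 ± 0.077) and Hdac6 (-0.28 ± 0.058) lower. After NCS 6 were higher and 3 lower, or 6 and 6 without wild-type replicate 3. NCS lowered 4 and raised 0 in wild-type MEFs and lowered 5 and raised 1 in 3KR MEFs, with 1 more lowered in each without that replicate. Hdac9 fell in both, by 0.35 and 0.67. Over these lists the median log2 difference between untreated genotypes lay between -0.05 and 0.07, apart from the 0.22 of the break signalling partners. The 18 proliferation genes had a median of 0.29 untreated, with 15 higher and 1 lower in 3KR MEFs. Their part in the differences of the break signalling partners was not tested.

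Across the 12 samples the 8 genes did not rise and fall as one. Pearson's r between their log2 CPM ran from -0.55, for Kat2b and Smarca4, to 0.71, for Crebbp and Kat5, and was 0.51 for Ep300 and Crebbp and -0.05 for Kat2a and Kat2b. These values describe 12 libraries in 4 groups and share the library scaling and the group differences. Among 9602 genes with a mean log2 CPM of at least 3, the patterns most like that of Kat2a were those of Sox12 (r = 0.986), Elp2 (r = 0.982) and Mgll (r = 0.982). For Topbp1 they were Pde4d (r = 0.987), Fam84b (r = 0.978) and Loxl3 (r = 0.977). Smarca4 was closest to Mtor (r = 0.960), Sppl2b and Zfp91, and Crebbp to Atxn1l (r = 0.918), Bmp2k and Ccdc9. The closest to Kat2b were Ttc28 (r = 0.899), the identifier ENSMUSG00000019769 and Tut4, and to Kat5 Ppp1r15b (r = 0.889), Lemd2 and Pogz. Sirt1 was closest to Dpysl2 (r = 0.885), Cep63 and Baz2b, and Ep300 to Smg1 (r = 0.874), Rnf185 and Mxd4.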

How the data were processed

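Stranded poly(A) libraries of 12 MEF samples were sequenced by the authors, and the deposited files hold raw counts per Ensembl gene. Per the submitters' processing notes, TopHat, HTSeq and DESeq were used with build mm9. Versions, and the strand setting of the counting, are not given in the sources used here. Symbols, exon lengths and spans were taken from GENCODE M21 (GRCm38), where 32938 of 37991 identifiers, with at least 99.4% of each library's counts, were found. The 15327 genes kept by filterByExpr were fitted with edgeR 4.0.16 (TMM scaling, glmQLFit, glmQLFTest, R 4.3.3) over all 12 samples with 1 coefficient per group, two-sided, and a Benjamini-Hochberg FDR under 0.05 over the whole table was called. The SE of a log2 fold change was derived from this test, as the absolute log2 fold change divided by the square root of its F statistic. The common biological coefficient of variation was 3.95%. Normalized counts are counts divided by DESeq2 1.42.0 size factors. Log2 CPM used a prior count of 2. A count of 3 equals 0.066 to 0.090 CPM.

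Paralog ratios were tested by exact permutation. Same-numbered treated and untreated wild-type samples deviated together from their group means (r = 0.267, 0.234 and 0.468 over 9602 genes). The labels do not say that the numbers mark a culture or embryo. Deviations within a group cancel out, and replicate 3 stood apart in both treatments. These values therefore cannot show that the other replicates are pairs. The 3KR pairs gave r = 0.0010 to 0.050. Alternatives were DESeq2 size factors, the DESeq2 Wald test, 2 other filters, the 6 samples compared, the replicate block and each sample left out. In the edgeR fits the replicate block was the number within each genotype for NCS and for the difference between responses. For the genotype comparisons it was the number across both genotypes. Leaving out wild-type replicate 3 of both treatments and permuting genotype over same-numbered pairs were chosen after seeing the data. The 8 genes, the lists and the rules were chosen with earlier results of these data known. Genes were named from each list as at most the 2 lowest p in each direction. The fit and the ratio test were checked on simulated data.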

Additional observations from a re-analysis of the deposited data

Results flagged for a closer look

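Smarca2 met the test of a difference between genotypes in the NCS response. Its response was -0.21 ± 0.051 (log2, SE) in 3KR MEFs and 0.08 ± 0.053 in wild-type MEFs, a difference of -0.29 ± 0.073 (edgeR FDR = 0.028). The value lay between -0.33 and -0.24 under 18 alternatives and passed in 11 of them. It was lost in 7 of the fits that left out 1 sample, with FDR from 0.0505 to 0.0966, the highest without treated wild-type replicate 1. With all 12 samples edgeR called no other gene of the acetyltransferase, deacetylase, reader, SWI/SNF, SAGA, TIP60 and break signalling lists in this test, where 3.73% of all genes passed. The DESeq2 Wald test called 1 further gene, in the TIP60 list.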

How the results depend on the processing

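Without 1 sample at a time, 3 to 7 of the 8 genes were called between untreated genotypes (of 6266 to 6871 genes in all), 2 to 3 between treated genotypes (6275 to 6839), 2 to 4 for NCS in wild-type MEFs (3292 to 4604), 1 for NCS in 3KR MEFs (3788 to 3892) and 0 to 2 for the difference between responses (345 to 1159). For NCS in 3KR MEFs the block on replicate numbers gave 2 and the fit of only the 6 samples gave 4, as did leaving out wild-type replicate 3. For NCS in wild-type MEFs the replicate block and that replicate's loss each gave 5. For the difference between responses the DESeq2 Wald test, no filter and the block on replicate numbers each gave 1, and leaving out wild-type replicate 3 gave 3. Genes called in all for that difference rose from 572 to 1379 with the block and to 1842 without wild-type replicate 3. The replicate block changed no other call by more than 1.5 times. Between genotypes, where same-numbered samples did not deviate together (r from -0.030 to 0.023), it kept 5 and 3.

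The ratio of Crebbp to Ep300 counts stayed higher in 3KR MEFs by 0.15 to 0.21 with single samples left out, that of Kat2b to Kat2a after NCS by 0.42 to 0.48, and that of Smarca2 to Smarca4 in 3KR MEFs by 0.35 to 0.42. As differences between same-numbered samples (replicate block) these were 0.17, 0.46 and 0.39 with an adjusted p of 0.0625 each, where 0.03125 is the smallest p that 6 pairs can give. With the genotype permuted over same-numbered pairs, all 3 genotype differences had an adjusted exact permutation p of 0.1, the smallest that 20 arrangements can give. They were 0.17, 0.39 and, for Kat2b to Kat2a, -0.09, so this test does not separate the ratios. Ratios that had not passed ranged from -0.0048 to 0.066 (Crebbp, NCS), -0.12 to -0.057 (Kat2b, genotype) and -0.032 to 0.040 (Smarca2, NCS). The last turned to -0.0073, -0.00785, -0.00064, -0.032 and -0.024 in 5 of the 12 fits.

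Other signs turned only in values that passed in neither fit. Crebbp for NCS in 3KR MEFs gave 0.0035 and 0.013 without treated or untreated replicate 3, in a range of -0.046 to 0.013. Kat2a for the difference between responses gave -0.0015 and -0.011 without treated wild-type replicate 1 or untreated replicate 3, up to 0.073. Kat2b between treated genotypes gave -0.021 without wild-type replicate 2, up to 0.074. Kat5 for NCS in wild-type MEFs gave 0.013 and 0.017 without treated replicate 2 or untreated replicate 3, and 0.0059 without replicate 3 of both, and -0.041 at the lowest. Smarca4 between treated genotypes gave 0.023 without wild-type replicate 3, and 0.022 without it in both treatments. The cause of these changes was not tested. Of 64 recalculated group means of normalized counts, 60 moved by less than 1 SD with TMM or total scaling. Levels per length depended on the length used. Of 32 group means in TPM, 30 moved by 1 SD or more when the longest transcript replaced all exons. The length of a gene is the same in every sample, so this shift is no measure of the spread between samples. Between 2 groups the SE of the log2 differences was 0.032 for Smarca4, which had the most counts. For Kat2b, which had the fewest, it was 0.065 to 0.066. The SE did not follow the counts alone, as it was largest for Crebbp, at 0.068 to 0.069.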

Other observations

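Genes for readers of acetyl-lysine, whose bromodomains or YEATS domains bind the marks that the acetyltransferases place, were called about as often as all genes between genotypes. Of 22 tested genes, 6 were higher and 3 lower in untreated 3KR MEFs, and 4 were higher and 5 lower after NCS, or 40.9% in both against 45.7% and 46.5% of all genes. Atad2, a bromodomain ATPase, was higher in 3KR MEFs by 0.37 ± 0.036 (log2, SE) untreated and 0.43 ± 0.036 after NCS, and Baz1b by 0.25 ± 0.032 untreated. Mllt3, which encodes AF9, a YEATS reader of the super elongation complex, differed by -0.59 ± 0.060 and -0.79 ± 0.064. NCS raised 4 and lowered 6 in wild-type MEFs (45.5% called against 26.7%), and raised 3 and lowered 6 in 3KR MEFs (40.9% against 30.8%). Baz1a, a subunit of the ACF remodeller, rose in both genotypes, by 0.27 ± 0.046 and 0.30 ± 0.047, while Baz1b fell by 0.20 and 0.21. Zmynd8 fell by 0.38 in wild-type MEFs and Mllt3 by 0.44 in 3KR MEFs. Without wild-type replicate 3, 9 readers were higher and 3 lower untreated and 6 and 5 after NCS, and NCS raised 7 and lowered 6 in wild-type MEFs and raised 5 and lowered 10 in 3KR MEFs.

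The 8 genes span from 7.22 kb (Kat5) to 132.7 kb (Crebbp). Kat2a, the gene that fell with NCS in both genotypes, spans 7.72 kb. Among tested genes under 10 kb, NCS lowered 7.76% in wild-type and 8.34% in 3KR MEFs, against 13.9% and 22.9% of genes over 100 kb. Kat2b, at 105.9 kb, rose in wild-type MEFs, where 20.2% of genes over 100 kb rose, and Crebbp passed in neither genotype.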
